A study of Mus musculus with 2 samples.

Results

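The mouse miRNAs numbered miR-3057 to miR-3112 are a run of microRNA (miRNA) annotations that received consecutive numbers, and 105 of the 1881 mouse miRNAs on the array belonged to it. They were chosen by name, with an optional letter and arm, and names starting with miR-3102 were left out. The 105 names came from 53 hairpins. For 52 of them both the 5p and the 3p arm were on the array, and for mir-3074 only the 5p arm had a name of this form. The 3 names that also carry a copy number, miR-3070-2-3p, miR-3074-1-3p and miR-3074-2-3p, lay outside the rule and are given separately. Of the 56 numbers in the range, 52 had a member, and the numbers of miR-3096, miR-3107 and miR-3111 had none under the rule.

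The RNA came from exosomes, small membrane vesicles that cells release, purified by ultracentrifugation from the supernatant of LLC cells, a mouse Lewis lung carcinoma cell line cultured in exosome-free serum. It was hybridized with Cy3 as the only dye to 2 Agilent mouse miRNA microarrays on 1 slide. Both samples form 1 group of exosomes from LLC cells with no named treatment, so the values describe that group and no test between groups was possible. Nothing in the labels says whether the samples came from separate cultures, so the spread between the 2 arrays may be technical. The labels describe a blood RNA kit with globin removal and cRNA labelling for both samples. This does not match exosomes of cultured cells on miRNA arrays, so how the RNA was prepared is uncertain.

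A miRNA is cut from a hairpin precursor, and the strands from its 5′ and 3′ sides are named the 5p and 3p arm. Usually one arm is loaded into an Argonaute protein as the guide and the other is degraded. The seed, bases 2 to 8 of the guide, pairs with target mRNAs, so miRNAs with the same seed can share targets. A run of numbers records the order of annotation and by itself implies no common family or function.

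Feature Extraction, the scanner software, called a miRNA detected where the total signal of at least 1 of its probes exceeded 3 times the error of that total. By that call, 13 of the 105 miRNAs of the series were detected in replicate 1, where 13.5% of all 1881 miRNAs were detected. In replicate 2, 11 were detected, where the share of all miRNAs was 11.9%. On both arrays, 11 of 105 (10.5%) were detected, against 11.5% of all mouse miRNAs, a share near the background. These were miR-3064-5p, miR-3072-5p, miR-3082-5p, miR-3085-3p, miR-3092-3p, miR-3095-3p, miR-3097-5p, miR-3098-5p, miR-3099-3p, miR-3101-3p and miR-3106-5p. Both arms of mir-3067 were detected in replicate 1 only, and 92 miRNAs of the series were detected on neither array.

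The mature sequence of 95 of the 105 miRNAs was found by name in the RefSeq table of the mouse build GRCm38.p6. The miRNAs without an entry were miR-3065-3p, miR-3075-5p, miR-3076-5p, both arms of mir-3078 and of mir-3079, miR-3095-5p and both arms of mir-3106. The sequences below are those of the 10 miRNAs detected on both arrays that had an entry, followed by the arms of mir-3067, printed 5′ to 3′ with the seed in capitals, because detection, seeds and base composition are described from them.
miR-3064-5p: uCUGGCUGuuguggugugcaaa
miR-3072-5p: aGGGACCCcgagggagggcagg
miR-3082-5p: gACAGAGUgugugugucugugu
miR-3085-3p: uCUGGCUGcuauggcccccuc
miR-3092-3p: gAAUGGGGcuguuuccccucc
miR-3095-3p: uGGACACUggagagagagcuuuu
miR-3097-5p: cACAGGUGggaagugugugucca
miR-3098-5p: uCCUAACAgcaggaguaggagc
miR-3099-3p: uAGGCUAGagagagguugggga
miR-3101-3p: uAGCUUUGguggauggucuuu
miR-3067-5p: aGUUCUCAggcccgcuguggugu
miR-3067-3p: cCAAGCGGcugcccugggagagg

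The brightest miRNA of the series was miR-3082-5p. Signals here are background-subtracted brightness in arbitrary units, as mean ± SD over the spots of a probe. Its first probe read 509 ± 21.8 (n = 15 spots) in replicate 1 and 551 ± 18.3 (n = 15) in replicate 2. Its second probe read 935 ± 44.97 (n = 15) and 1030.3 ± 32.3 (n = 15). Each probe was thus slightly brighter in replicate 2, while the second probe was the brighter one on both arrays.

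A level is given here as log2 of the signal divided by a reference signal of the same array, the 75th percentile of the 393 probes that passed detection in both replicates, so that 0 marks that reference. The reference was 50.2 in replicate 1 and 40.0 in replicate 2. The level of miR-3082-5p was 4.01 ± 0.32 (SD, n = 2 arrays), from 3.78 in replicate 1 and 4.24 in replicate 2. By mean level it ranked 10 among the 216 miRNAs detected on both arrays, with rank 10 in replicate 1 and rank 7 in replicate 2. The rank is one of signal, since probes differ in how strongly they bind, and not one of amount. With the total gene signal of Feature Extraction in place of the probe mean it ranked 14, but for some miRNAs that total held more than their own detected probes, as given below.

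**Figure D1:**
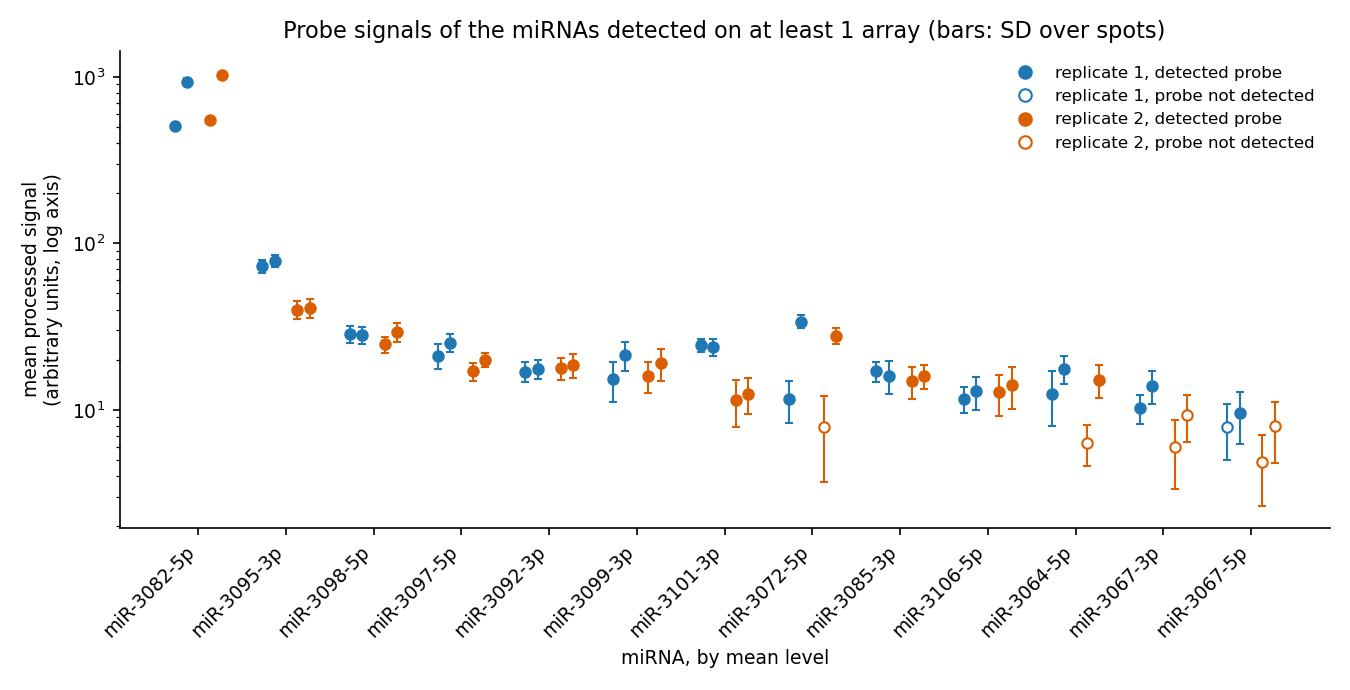
Mean background-subtracted signal (arbitrary units, log axis) of each probe of the 13 miRNAs of the series detected on at least 1 array, with bars for the SD over spots, blue for replicate 1 and orange for replicate 2, and open symbols for probes under the detection limit. The probes of miR-3082-5p lie between 509 and 1030.3, and those of miR-3095-3p and miR-3101-3p are lower in replicate 2.

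The second brightest, miR-3095-3p, stood at a level of 0.30 ± 0.41 (SD, n = 2) and ranked 38 of 216. Its probes read 72.9 ± 6.76 (n = 15 spots) and 78.5 ± 6.22 (n = 15) in replicate 1. In replicate 2 they read 40.0 ± 5.06 (n = 15) and 40.9 ± 5.22 (n = 15). Before scaling, the spots of the arrays did not overlap for either probe: the lowest spots in replicate 1 were 64.0 and 66.4, and the highest in replicate 2 were 50.6 and 49.2. The reference signal was also lower in replicate 2, at 40.0 against 50.2. Before scaling, the mean signal was lower there for 146 of the 216 miRNAs detected on both arrays. The spots are repeats within 1 array, and the share of all probes without such overlap is not given here. After scaling, the level was 0.59 in replicate 1 and 0.01 in replicate 2, a difference (replicate 2 minus replicate 1) of -0.58.

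The largest difference between the arrays among the detected miRNAs of the series was that of miR-3101-3p. Its probes read 24.4 ± 2.27 (n = 13 spots) and 23.8 ± 2.79 (n = 15) in replicate 1, and 11.4 ± 3.59 (n = 15) and 12.5 ± 3.02 (n = 15) in replicate 2. The share of its spots that the software marked as well above background was 100% for both probes in replicate 1, and 13.3% and 20.0% in replicate 2. The level was -1.07 in replicate 1 and -1.80 in replicate 2, a difference of -0.73. A difference this low or lower was seen in 27 of the 216 miRNAs detected on both arrays, and one as low as that of miR-3095-3p or lower in 34.

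Across the 11 miRNAs detected on both arrays, 7 were higher and 4 lower in replicate 2, with a median difference of 0.22 and an SD of 0.42 over the 11. This split rests on the scaling: before it, the mean signal was higher in replicate 2 for 3 of the 11 and lower for 8, and for 70 and 146 of the 216. Over the alternatives the median difference of the series lay between 0.02 and 0.24. The median over all 216 was 0.21, with quartiles of -0.22 and 0.41, and 73 of the 216 were lower in replicate 2 after scaling. The lower ones of the series were miR-3095-3p, miR-3101-3p, miR-3064-5p with -0.26 and miR-3072-5p with -0.20. The differences thus spread around the same median as those of the whole array, and miR-3101-3p and miR-3095-3p lay below its lower quartile, as did miR-3064-5p. Whether these differences lie between exosome preparations or between hybridizations cannot be told apart with 1 array for each sample.

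**Figure D2:**
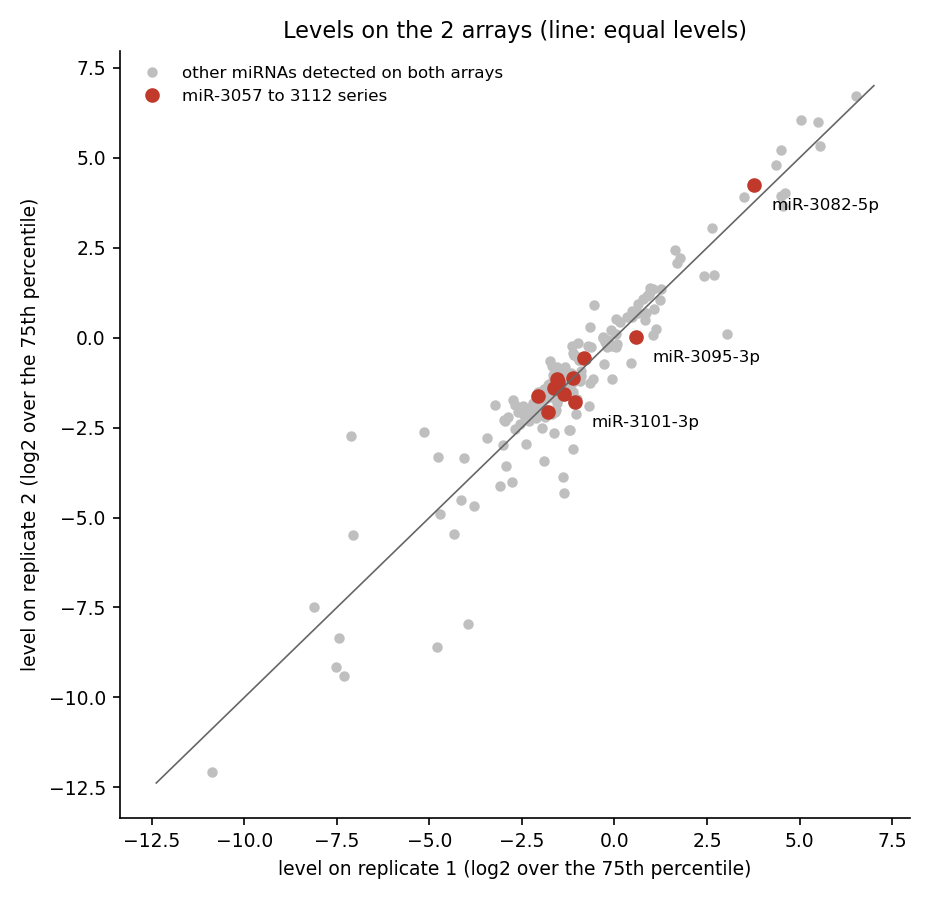
Level on replicate 1 (x axis) against replicate 2 (y axis), both as log2 over the 75th percentile of the array, for the 216 miRNAs detected on both arrays, with the 11 of the miR-3057 to miR-3112 series in red and the line of equal levels. miR-3082-5p lies among the brightest at a mean of 4.01, and miR-3095-3p and miR-3101-3p lie below the line by 0.58 and 0.73 in size.

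The other miRNAs detected on both arrays were dimmer, with mean levels between -0.70 and -1.94. The highest of them was miR-3098-5p, whose probes read 28.4 and 28.3 in replicate 1 and 24.8 and 29.5 in replicate 2, and which ranked 62. Next came miR-3097-5p, with 21.2 and 25.3 in replicate 1 and 17.1 and 20.0 in replicate 2, at a level of -1.12 ± 0.01 (SD, n = 2). After scaling it had the smallest difference between the arrays among the detected miRNAs of the series, 0.01. Before scaling its mean signal was 23.2 in replicate 1 and 18.6 in replicate 2, so this small difference rests on the scaling.

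Close to each other followed miR-3092-3p at -1.35 ± 0.28, miR-3099-3p at -1.38 ± 0.20, miR-3072-5p at -1.46 ± 0.14 and miR-3085-3p at -1.51 ± 0.16 (SD, n = 2 each). Neighbours in this order differed by less than the SD of either. The mean of miR-3092-3p was above that of miR-3085-3p by about the SD of the latter, and it was the higher of the pair on each array. The dimmest, which also differed by less than their SDs, were miR-3106-5p at -1.85 ± 0.30 and miR-3064-5p at -1.94 ± 0.19. The median level of the 11 was -1.38 and that of all 216 was -1.46, with 7 of the 11 above the latter.

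Of the 22 probes of the 11 miRNAs, 20 exceeded 3 errors on both arrays. The exceptions were the first probe of miR-3064-5p, whose total was 3.81 errors in replicate 1 and 2.03 in replicate 2, and the first probe of miR-3072-5p, with 3.62 and 2.47. The second probe of miR-3072-5p was brighter on both arrays, with 33.9 and 27.9 against 11.7 and 7.86 for the first. In replicate 2 the total gene signal of these miRNAs, a separate value of Feature Extraction, was larger than the sum of their own detected probes, at 13.7 against 3.21 for miR-3064-5p and 19.6 against 5.91 for miR-3072-5p. In replicate 1 the values for each were equal. In replicate 2 the 19.6 of miR-3072-5p matched its own 5.91 together with the 13.7 of miR-3064-5p, so it is not a value of miR-3072-5p alone. The levels above do not use the total gene signal.

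The arms of mir-3067 lay close to the limit of detection. The probes of miR-3067-3p stood at 3.22 and 4.21 errors in replicate 1 and at 1.93 and 2.92 in replicate 2. Those of miR-3067-5p stood at 2.55 and 3.03 errors in replicate 1 and at 1.56 and 2.52 in replicate 2. The 5p arm thus crossed the limit in replicate 1 by a narrow margin on 1 probe, while both probes of the 3p arm crossed it, and the mean signals were 12.1 and 7.68 for the 3p arm and 8.75 and 6.40 for the 5p arm, in the order of the replicates. The total gene signal of miR-3067-5p in replicate 1 was 7.16, against 2.03 for its own detected probe. The total of miR-3067-3p on that array was 5.13, and the 7.16 matched these 2 values together.

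**Figure D3:**
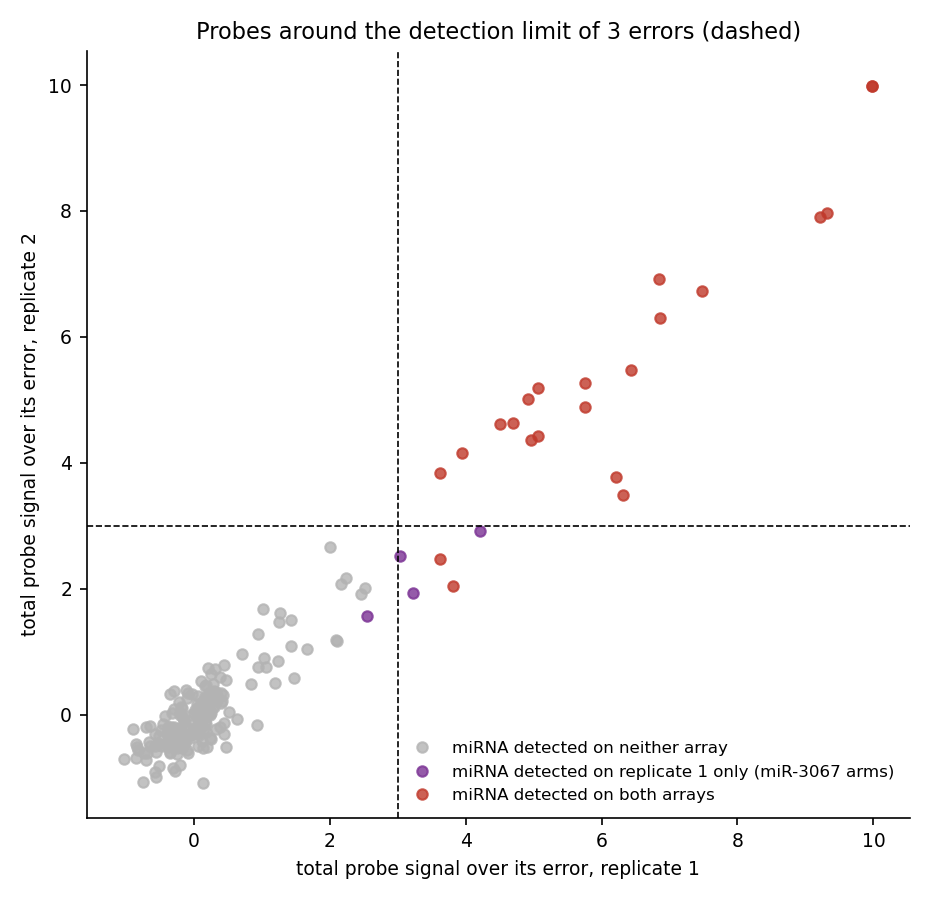
Total probe signal over its error in replicate 1 (x axis) and replicate 2 (y axis) for the 218 probes of the series, coloured by where their miRNA was detected, with dashed lines at the limit of 3 errors. The miR-3067 probes lie at the corner of the lines, and the 192 probes of the undetected miRNAs reach at most 2.52 errors in replicate 1 and 2.66 in replicate 2.

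In each of the 11 hairpins with a miRNA detected on both arrays, the other arm was undetected on both. The detected arm was the 5p arm in 6 hairpins (mir-3064, mir-3072, mir-3082, mir-3097, mir-3098 and mir-3106) and the 3p arm in 5 (mir-3085, mir-3092, mir-3095, mir-3099 and mir-3101). The mean signals of the undetected arms lay between -1.72 and 2.19 on the array of replicate 1 and between -2.17 and 2.60 on that of replicate 2, with miR-3098-3p highest each time. The lowest mean signal of a detected arm was 12.3 in replicate 1 and 10.75 in replicate 2, a gap that the detection call itself selects for. For mir-3082, the 3p arm read -0.62 and -2.17 beside 722 and 791 for the 5p arm.

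Over the whole array, 723 hairpin names had both arms. Of these, 139 had 1 arm and 7 had 2 arms detected on both arrays, so that 4.79% of the hairpins with a detected arm had both. The 0 of 11 in the series stands beside that share. By the detection call of Feature Extraction, the only hairpin of the series with both arms detected was mir-3067, in replicate 1.

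**Figure D4:**
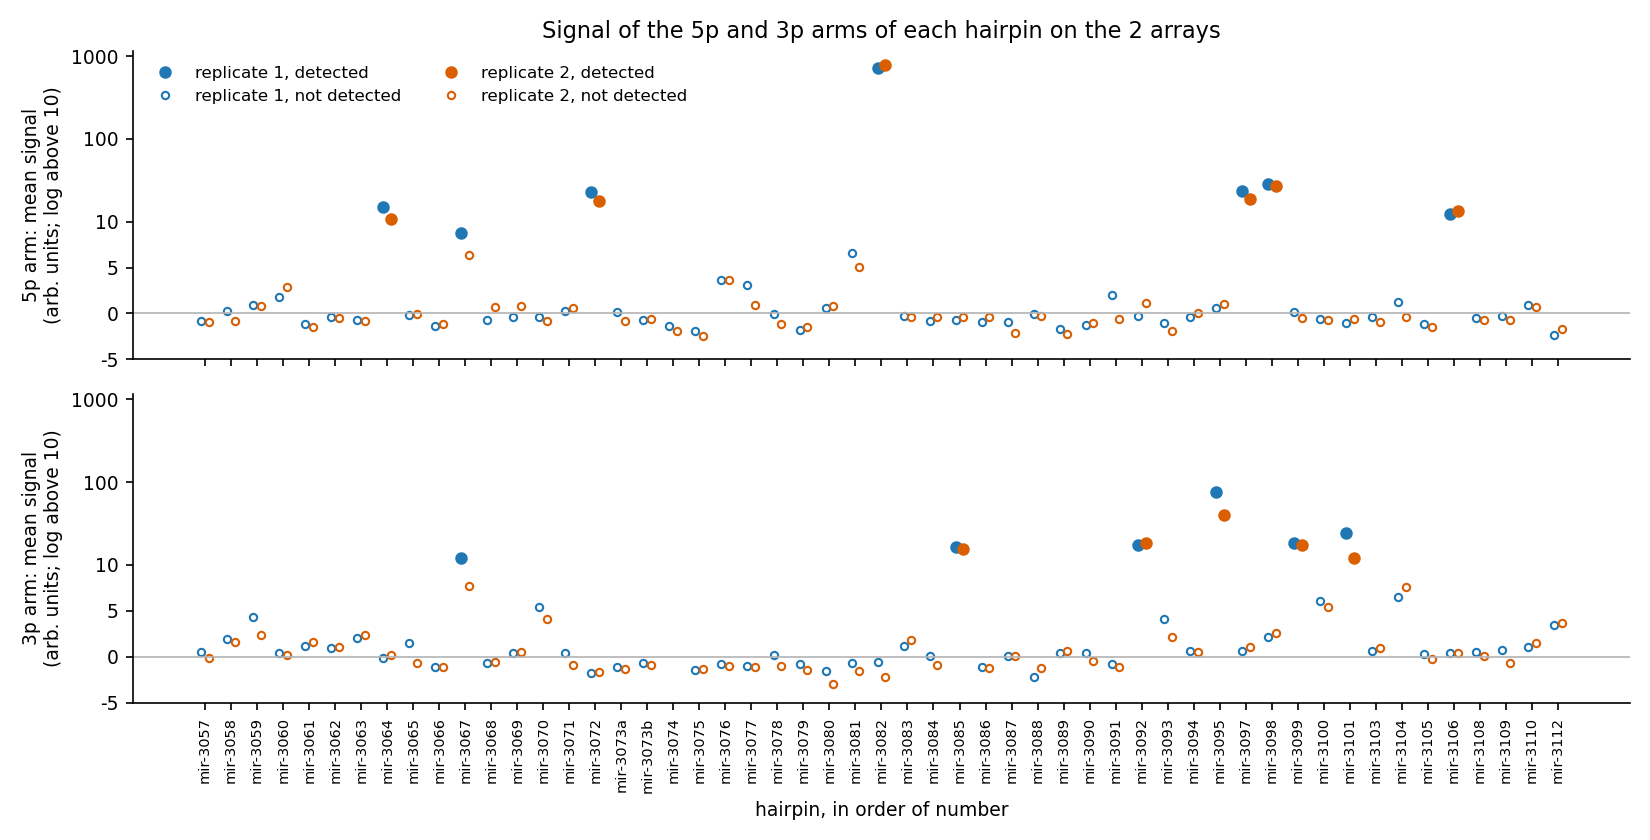
Mean background-subtracted signal (arbitrary units, linear up to 10 and logarithmic above) of the 5p arm (upper panel) and 3p arm (lower panel) of each of the 53 hairpins, in order of number, with filled symbols where the miRNA was detected. Detected arms face an undetected arm near 0 in every hairpin but mir-3067.

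The 92 undetected miRNAs were the 11 opposite arms, miR-3074-5p and both arms of 40 other hairpins. These hairpins were mir-3057 to mir-3063, mir-3065, mir-3066, mir-3068 to mir-3071, mir-3073a, mir-3073b, mir-3075 to mir-3081, mir-3083, mir-3084, mir-3086 to mir-3091, mir-3093, mir-3094, mir-3100, mir-3103 to mir-3105, mir-3108 to mir-3110 and mir-3112. Their 192 probes had mean signals between -3.07 and 7.83 in replicate 1, with a median of 0.06, and between -3.32 and 8.45 in replicate 2, with a median of -0.47. The negative control spots had a median of 0.62 in replicate 1 and 0.74 in replicate 2, slightly above those of the undetected probes. These are single spots, while the probe values are means over spots. Probes of the other undetected miRNAs of the array had medians of 0.08 in replicate 1 and -0.10 in replicate 2.

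At the ends of the range, miR-3057-5p read -0.77 and -0.94, miR-3057-3p 0.50 and -0.09, miR-3112-5p -2.29 and -1.73, and miR-3112-3p 3.46 and 3.67. Nearest to the limit among the undetected were miR-3104-3p, with at most 2.23 errors in replicate 1 and 2.66 in replicate 2, and miR-3100-3p, with 2.52 and 2.01. For these the arrays do not show absence, only a signal under the limit. Of the names with a copy number, miR-3070-2-3p was detected in replicate 1 on its 3 probes, with a mean signal of 13.1, and undetected in replicate 2, with 4.91. The other two were undetected on both arrays.

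The count of detected miRNAs depended on the call. With a call that asks for positive and significant signal in at least 50% of a probe's spots, 22 of the 105 miRNAs (20.95%) were called on both arrays, against 25.4% of all miRNAs. The 11 added ones were miR-3059-3p, both arms of mir-3067, miR-3070-3p, miR-3076-5p, miR-3077-5p, miR-3081-5p, miR-3098-3p, miR-3100-3p, miR-3104-3p and miR-3112-3p. Under this call both arms of mir-3067 and both arms of mir-3098 were thus called on both arrays. With a call on spots well above background, again in at least 50% of them, 8 (7.62%) were called, against 7.07%, and miR-3064-5p, miR-3101-3p and miR-3106-5p were lost. Where all probes had to exceed 3 errors, 9 (8.57%) were called, against 7.50%, and miR-3064-5p and miR-3072-5p were lost. The share of the series was thus below that of the array under the first of these calls and near it under the others. None of these differences was tested.

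Side by side with other runs of mouse numbers, 10.5% of this series was detected on both arrays, compared with 11 of 38 (28.9%) for miR-5097 to miR-5136, 6 of 89 (6.74%) for miR-6335 to miR-6420 and 6 of 31 (19.4%) for miR-8090 to miR-8120. In miR-6896 to miR-7094 it was 30 of 200 (15.0%) of the 5p arms and 17 of 199 (8.54%) of the 3p arms. These shares are counts over 1 group of exosomes and were not tested against each other.

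MiRNAs that mark particular tissues or cell types were also read. Of 14 such markers (miR-451a, miR-144-3p and miR-486a-5p of red blood cells, miR-122-5p of liver, miR-1a-3p, miR-133a-3p and miR-206-3p of muscle, miR-124-3p and miR-9-5p of neurons, miR-142a-3p and miR-223-3p of leukocytes, and miR-200c-3p, miR-141-3p and miR-205-5p of epithelium), 1 (7.14%), miR-206-3p, was detected on both arrays, beside 11.5% of all miRNAs, so this count says little about the source of the RNA. Of 3 miRNAs common to most cells, let-7a-5p and miR-21a-5p were detected and miR-16-5p was not, with signals of 2.82 and 2.39.

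The detected miRNAs of the series held more G and less C than the undetected ones. The median share of G in the mature sequence was 35.6% over the 10 detected on both arrays with a sequence and 25.0% over 83 detected on neither. The median share of C was 15.5% and 27.3%. Over the miRNAs of the array with a sequence, the median share of G was 35.4% over 182 detected and 25.0% over 1390 undetected ones, so the series followed the array in this. The median length was 22 bases in all of these sets.

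Within hairpins, the share of G was higher in the detected arm in 8 of 9 hairpins with 1 detected arm and both sequences. It was 54.5% in miR-3072-5p, which holds no U, and 18.2% in miR-3072-3p. It was 50% in miR-3099-3p and 14.3% in miR-3099-5p. The exception was mir-3085, with 23.8% in the detected miR-3085-3p and 36.0% in miR-3085-5p. The same count was not made over the other hairpins of the array, so nothing is said here on whether 8 of 9 is particular to the series. Outside the series the arm with less G was also seen as the detected one, as in mir-6924. These shares are descriptions, and the part of base composition in the signal was not tested.

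**Figure D5:**
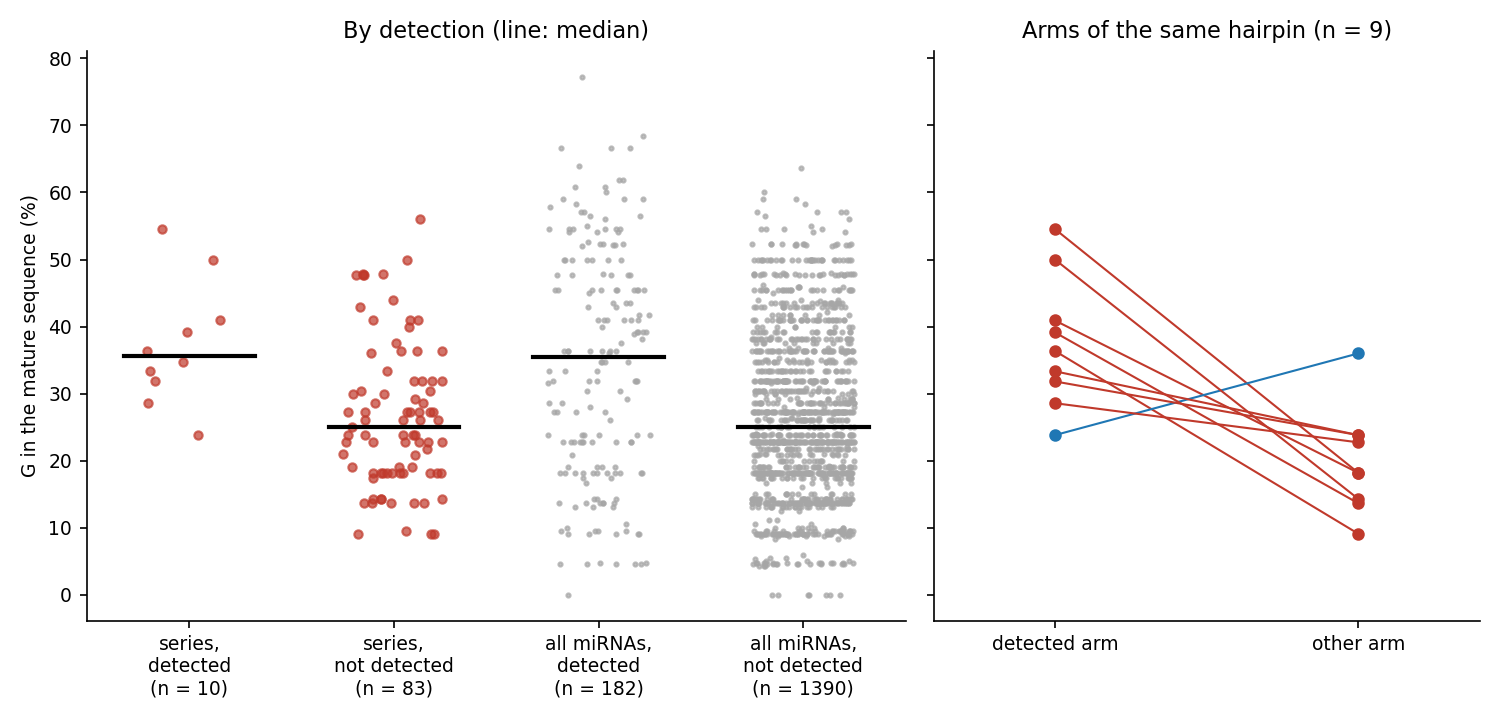
Share of G in the mature sequence (percent) of miRNAs with a sequence. On the left are the detected and undetected miRNAs of the series and of the array with a line at each median, and on the right the arms of 9 hairpins joined by lines. The detected sets have medians of 35.6% and 35.4% against 25.0% in both undetected sets, and the G share falls from the detected to the other arm in 8 of 9 hairpins.

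The sequence GUGUGU, searched on the RNA strand, stood in 2 of the 95 miRNAs of the series with a sequence, miR-3082-5p and miR-3097-5p, and both were detected. It was in 0 of the 83 undetected ones and in 0.995% of the 1608 miRNAs of the array with a sequence. Of these 1608, 16 hold it, and 12 of the 16 were detected on both arrays (75%), against 170 of 1592 (10.68%) without it. The other names of the array had no sequence to search. The other arms of miR-3082-5p and miR-3097-5p, which lack it and were undetected, and miR-574-5p, the brightest of the 16, are shown for comparison.
miR-3082-5p: gACAGAGUgugugugucugugu
miR-3082-3p: cACAUGGCacucaacucugcag
miR-3097-5p: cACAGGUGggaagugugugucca
miR-3097-3p: cUCAGACCuuucuaccugucag
miR-574-5p: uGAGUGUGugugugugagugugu

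By mean level, miR-574-5p ranked 6 of 216 at 4.58, miR-3082-5p 10, miR-1187 11 and miR-669n 12, and miR-3097-5p stood further down at 78. The longest run of bases that miR-3082-5p shares with miR-574-5p is 12, and with miR-1187 it is 10. It is also 10 with miR-32-3p, which ranked 16, and 9 with miR-466k, which was undetected on both arrays. The muscle marker miR-206-3p also holds GUGUGU and ranked 70. What similar sequences contribute to these signals was not tested.

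The motif GGAG stood in 3 of the 10 detected miRNAs (miR-3072-5p, miR-3095-3p and miR-3098-5p, 30.0%) and in 12 of the 83 undetected (14.5%). It stood in 30.2% of all 182 detected miRNAs with a sequence and in 14.4% of all miRNAs of the array with a sequence. CCCU stood in 2 of the 10 (miR-3085-3p and miR-3092-3p, 20.0%) and in 8 of the 83 (9.64%), with 17.6% over the 182 and 11.7% over the array. The shares of the 10 were thus near those of all detected miRNAs. With 10 detected sequences, each share of the detected series rests on few miRNAs.

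By seed, 13 of the 95 miRNAs shared bases 2 to 8 with another mouse miRNA of the table. The only pair within the series detected on both arrays was miR-3064-5p and miR-3085-3p, which share the seed CUGGCUG and their first 8 bases, come from opposite arms of hairpins on chromosomes 11 and 19, and have no other seed mate. Their levels, at -1.94 ± 0.19 and -1.51 ± 0.16 (SD, n = 2), were both in the lower part of the series. The seed AGCUUUG of miR-3101-3p is also that of miR-7223-5p, which was undetected, with signals of 0.42 and -0.46. The other 7 detected miRNAs with a sequence had a seed of their own in the table.

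Among the undetected miRNAs of the series, some had a detected seed mate. miR-3103-5p has the seed GAGGGAG of miR-7047-5p and miR-6965-5p, which were detected on both arrays, and miR-3091-3p has the seed GGGCCUG of miR-2861, which was detected too. miR-3070-3p shares GGUGCUA with miR-3070-2-3p, detected in replicate 1. miR-3073a-5p and miR-3073b-5p share UGGUCAC, and neither was detected. The remaining undetected ones with a seed mate, miR-3058-3p, miR-3059-5p, miR-3062-3p, miR-3077-3p and miR-3092-5p, each had a single mate that was undetected too.

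In the genome, the numbers of the series follow position. For 47 numbers with a hairpin position in GRCm38.p6, taking the first copy of a number with several, all 46 steps from one number to the next went forward in the order of chromosomes 10 to 19, then 2 to 9 and then X, and along each chromosome by start. Counting every copy, members lay on 18 chromosomes, and 8 consecutive numbers, from miR-3066 to miR-3073, lay on chromosome 12. The second copies mir-3074-2, on chromosome 8, and mir-3084-2, on chromosome 19 beyond mir-3086, fell outside this order. Of the 10 detected miRNAs with a position, 6 lay from mir-3092 to mir-3101 on chromosomes 3 to 7, and the others lay on chromosomes 11, 12, 17 and 19.

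Of 53 positions of members, 48 lay within the span of another annotated gene. The table gives no exons, so exon and intron were not told apart. The hairpin of miR-3082-5p, chr17:25831365-25831428 on the minus strand, lies within the spans of Stub1, which encodes a ubiquitin ligase that works with chaperones, on the same strand, and of Jmjd8 on the other. That of miR-3095-3p, chr4:58441012-58441098 on the minus strand, lies within Lpar1, a receptor for lysophosphatidic acid, on the same strand.

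Also on the strand of their host gene were mir-3064 (chr11:106782693-106782759) in Ddx5, an RNA helicase of the nuclear miRNA processing complex, mir-3092 (chr3:27584900-27584995) in Fndc3b, mir-3097 (chr5:35021049-35021115) in Rgs12, a regulator of G protein signalling, mir-3099 (chr7:6803587-6803670) in the imprinted gene Usp29, and mir-3101 (chr7:27176006-27176093) in Rab4b, a small GTPase of endosomes. The hairpin mir-3085 (chr19:42280082-42280170) lies in the span of Gm34347 on the other strand. The hairpin mir-3098 (chr6:125195792-125195878) lies in no other gene of the table.

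The hairpins mir-3070, mir-3071 and mir-3072 lie in the imprinted region between Dlk1 and Dio3 on chromosome 12, which holds many miRNAs expressed from the maternal chromosome. The hairpin of mir-3072 (chr12:109747878-109747960) lies in the noncoding gene Mirg. Within 10 kb of it are the hairpins of miR-154, miR-496a, miR-377, miR-541, miR-409, miR-412, miR-369 and miR-410, and none of their 16 arms was detected on either array. Between Dlk1 and Dio3 as a whole, 5 of 112 miRNAs with a position (4.46%, beside 11.5% of all) were detected on both arrays, and they were miR-3072-5p, miR-494-3p, miR-539-5p, miR-1906 and miR-3544-3p. The arms of mir-3071 were undetected, as were both strands of miR-136, whose hairpin overlaps it on the other strand.

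Other members face a miRNA on the opposite strand too. The hairpins of mir-3074 overlap those of mir-24, and miR-3074-5p, miR-24-1-5p, miR-24-2-5p and miR-24-3p were undetected, with miR-24-3p at 5.88 and 4.57. The hairpin of mir-3065 overlaps that of mir-338, of which miR-338-5p was detected on both arrays, at 7.20 and 6.05, while miR-3065-5p was not, at -0.13 and -0.06. The hairpins mir-3073a and mir-3073b overlap each other, and none of their arms was detected. Of the 11 miRNAs of the series detected on both arrays, none of the 10 with a position had a hairpin facing it.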

How the data were processed

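Exosomal RNA of LLC cells was measured on 2 arrays, replicates 1 and 2 of 1 group. The authors deposited spot intensities, probe totals and detection flags from Feature Extraction (10.7.1.1 per the file headers and methods, 9.1 per the submitters' processing notes), background-subtracted but without normalization between arrays. The deposited log2 table has no stated processing, its median is -3.32 in both columns, and it was used as an alternative only. Its scale and centring are unknown.

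Control spots and outlier spots were left out, which removed 49 and 41 of the spots of the series, and 0 spots were saturated. Each array was scaled to the 75th percentile of the probes that passed detection on each array. Scaled values of 0 or less took the lowest positive value before log2, and spots and then probes were averaged. The detection flag equalled at least 1 probe over 3 errors in all 1881 miRNAs of each array. With 1 group of 2 arrays, no p-value was computed, and the number of arrays limits the precision.

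Named miRNAs are those detected on at least 1 array, their other arms, seed mates and hairpins facing them, the ends of the number range and the 2 largest differences between arrays. The names miR-574-5p, miR-1187, miR-669n, miR-32-3p, miR-466k, mir-6924, those near mir-3072 and those between Dlk1 and Dio3 were chosen after their values were seen. The members and lists were chosen with earlier results of these data known. Sequences and positions are from RefSeq tables of GRCm38.p6, which matched 1608 of 1881 names. Scripts used Python 3.11.15, numpy 2.4.6, pandas 2.3.3, and R 4.3.3 with limma 3.58.1 (normexp, offset 50), and were tested on simulated data. The simulated signals were brighter than those of the dimmest detected miRNAs of the series, so that range was not tested. Alternatives changed how miRNAs were called detected, how arrays were scaled and corrected for background, and how probes were summarised. They also changed which names and replicates entered, and used the log2 table.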

Additional observations from a re-analysis of the deposited data

How the results depend on the processing

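No paired analysis was possible because the arrays form a single group. The 11 miRNAs and the 11 hairpins with 1 arm detected on both arrays became 22 and 18 where at least 50% of the spots had to be positive and significant. With 1 array, they were 11 to 13 and 11. The median level of the detected miRNAs, -1.38, was -2.14 with that call, -1.24 with the call by spots well above background, -1.19 with the brightest probe, -1.58 with the total gene signal, -1.11 with the sum of detected probes, -0.44 with normexp and -1.52 to -1.23 with 1 array. It was 2.84 when every probe entered the percentile and 2.98 from the log2 values that were deposited, where another zero point is used. The rank of miR-3082-5p, 10, was 14 with the total gene signal and 7 to 10 with 1 array. For some miRNAs the total gene signal held more than their own detected probes, which limits the values taken from it. miR-3082-5p was the brightest of the series under every alternative run. The median difference between the arrays, 0.22, lay between 0.02 and 0.24 over its alternatives. It was 0.03 when every probe entered the percentile and 0.06 with the sum of detected probes, so its size depended on these choices. The SD of 0.42 is a spread over the 11 miRNAs and not an error of this median. Signals near 3 errors limit what can be said of the dimmest miRNAs.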
